A study of Drosophila melanogaster with 15 samples.

Results

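Transmitter uptake and recycling in fly astrocytes was followed through 8 genes: the plasma membrane transporters Eaat1, Eaat2 and Gat, the glutamine synthetases Gs1 and Gs2, glutamate dehydrogenase (Gdh), GABA transaminase (Gabat) and ebony (e). The genes were taken by their FlyBase symbols and make up 8 of the 17509 genes in the table. All 8 passed the filter for testing (at least 1 TPM in at least 5 samples), as did 8101 genes in all. Gs1 passed only through the injured samples, since 1 of the 5 uninjured samples reached 1 TPM. TPM is the share that a gene holds among all transcripts of a sample, corrected for transcript length.

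Astrocytes were sorted by fluorescence from dissociated adult brains of R86E01-Gal4/UAS-Redstinger flies and profiled by RNA sequencing 4 hr after traumatic brain injury, 24 hr after it, or without injury, with 5 samples in each group. All flies were labelled WT, carried the same driver and red nuclear reporter, were collected 3 days after eclosion, and injury was given with a spring-loaded high-impact trauma (HIT) device. The label astrocyte thus rests on the R86E01-Gal4 driver, and each sample held sorted cells pooled from many brains. In such pooled cells fewer cells of a type and less RNA per cell cannot be told apart.

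Astrocytes of the fly brain send fine processes into the synaptic neuropil, where they clear transmitter that neurons have released. Glutamate and GABA are taken up across the astrocyte membrane, glutamate is turned into glutamine by glutamine synthetase or into 2-oxoglutarate by glutamate dehydrogenase, and GABA enters the same pool through GABA transaminase. Ebony joins beta-alanine to histamine and dopamine, which takes these amines out of signalling.

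The astrocyte label fitted the levels of alrm, the classical fly astrocyte gene, which averaged 19758 ± 2295 TPM at 4 hr, 23094 ± 2940 TPM at 24 hr and 19924 ± 6259 TPM in uninjured samples (SD, n = 5 each). The neuronal vesicle gene nSyb averaged 13.0 ± 7.36, 19.7 ± 22.2 and 6.63 ± 4.44 TPM in the same order of groups. The genes of the mitochondrial genome took 11.5 to 43.2% of TPM at 4 hr, 15.2 to 37.2% at 24 hr and 32.7 to 51.8% in uninjured samples, and 9127 to 9939, 9075 to 10005 and 8440 to 8737 genes had a TPM above 0 in these groups. TPM does not keep the read depth, so the depth of each sample is unknown here. Over all 8101 genes tested, the median log2 fold change was 0.31 at 4 hr and 0.51 at 24 hr against uninjured samples. Dividing TPM by median-of-ratios size factors brought those medians to 0.02 and 0.10, and changes of the 8 genes are given below relative to both scales.

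The 8 genes spanned about the whole range of expression in these cells. Gs2, Gat and Eaat1 were among the most abundant transcripts: by mean TPM over all genes in the table, Gs2 ranked 7 at 4 hr, 8 at 24 hr and 13 in uninjured samples, Gat 12, 9 and 10, and Eaat1 21, 23 and 19. These 3 genes made up 97.2% of the summed TPM of the 8 genes at 4 hr, 96.9% at 24 hr and 97.7% in uninjured samples. Next came e at rank 97, 80 and 117, and Gabat at 403, 379 and 291. Gdh ranked 2505, 3955 and 5581, Eaat2 4314, 3034 and 4655, and Gs1 6605, 6394 and 7202. Because TPM is corrected for length, these levels can be set beside each other.

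**Figure D1:**
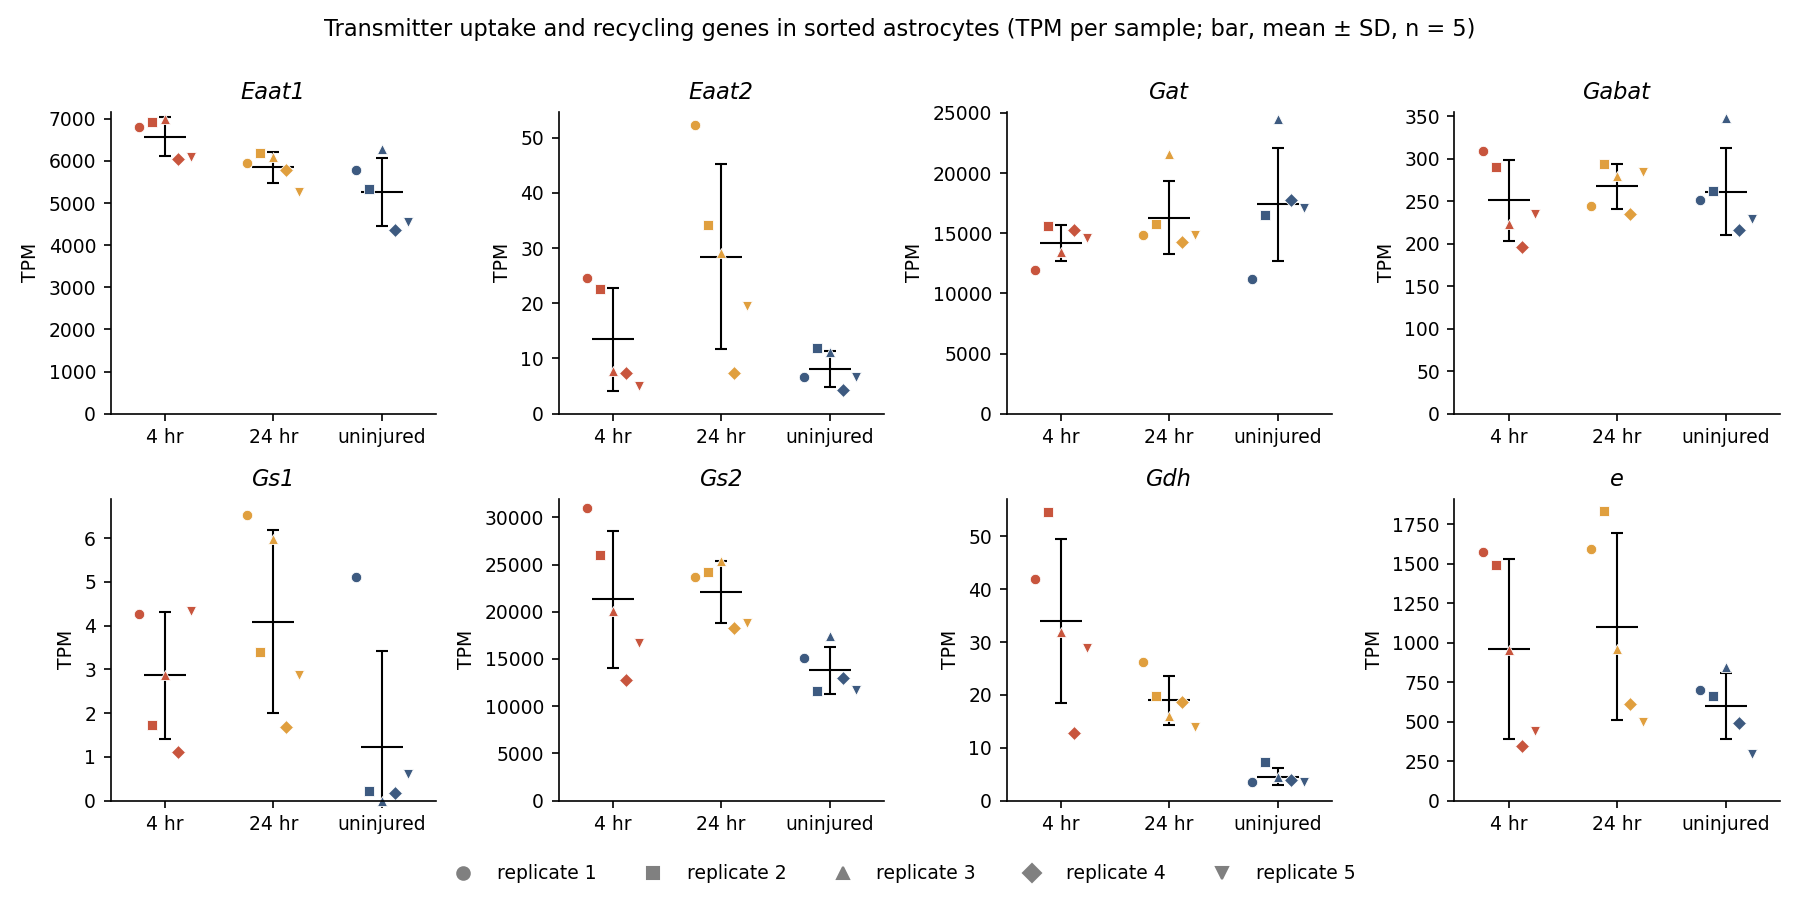
TPM (vertical axis, linear from 0) of the 8 genes in each sample 4 hr after injury, 24 hr after injury and without injury; symbols give the replicate number, and bars the mean ± SD of 5 samples (for Gs1 in uninjured samples the lower bar ends at 0). Gdh is the one gene whose 4 hr and 24 hr samples, 12.9 to 54.6 and 14.0 to 26.3 TPM, all lie above the 3.47 to 7.25 TPM of uninjured samples.

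The order of the levels was nearly the same in the 3 groups. Gs2 and Gat overlapped in each group, with Gs2 above Gat in 4 of 5 samples at 4 hr and 5 of 5 at 24 hr, and Gat above Gs2 in 4 of 5 uninjured samples. The ranges of Gat, or of Gs2 in uninjured samples, and Eaat1 were apart, as were those of Eaat1 and e. The ranges of e and Gabat were apart at 4 hr and at 24 hr and overlapped in uninjured samples. Gdh and Eaat2 overlapped in all 3 groups, and Gdh and Gs1 in uninjured samples.

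Together the TPM of the 8 genes summed to 4.33 ± 0.752% of all TPM at 4 hr and 4.56 ± 0.633% at 24 hr, against 3.73 ± 0.683% in uninjured samples (SD, n = 5 each). Values divided by size factors are no longer shares of a fixed total. Their sums had the reverse order, at 41073 ± 1545, 38924 ± 3038 and 45002 ± 4170. When the mitochondrial genome was left out, uninjured samples were again the highest, at summed TPM of 59479 ± 2399, 60354 ± 4891 and 65428 ± 6440.

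Among the 8 genes, Gdh alone passed the threshold of an adjusted p below 0.01 and a change of at least 2-fold (limma on log2(TPM + 1), Benjamini-Hochberg over 8101 genes). It was higher at 4 hr and at 24 hr than in uninjured samples, and none of the 8 genes was called lower or had a lower value at an unadjusted p below 0.05 in these 2 comparisons. Over all genes tested, 5.76% were called higher and 0.222% lower at 4 hr, and 2.26% were called higher and 0.0617% lower at 24 hr. Between 24 hr and 4 hr none of the 8 genes was called, against 0.42% of all genes called higher and 1.58% called lower at 24 hr. At an unadjusted p below 0.05, Gdh alone of the 8 genes passed in the comparison of 24 hr with 4 hr. Against uninjured samples, 3 of the 8 genes were higher at that threshold at 4 hr (Gdh, Gs1 and Gs2) and 4 at 24 hr (these and Eaat2). Gs1 is among them although it passed the filter only through the injured samples. At that threshold 23% of all genes were higher and 4.09% lower at 4 hr, and 36.5% were higher and 2.73% lower at 24 hr. Between the injury times, 12% were higher and 7.06% lower at 24 hr than at 4 hr.

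Gdh encodes the mitochondrial enzyme that converts glutamate to 2-oxoglutarate and ammonia, and it lies on the minus strand of 3R:23935958-23943101 (dm6) with 7 merged exons. It had 42.0, 54.6, 31.9, 12.9 and 29.0 TPM in replicates 1 to 5 at 4 hr. At 24 hr it had 26.3, 19.8, 16.0, 18.7 and 14.0 TPM, and in uninjured samples 3.47, 7.25, 4.53, 3.91 and 3.52 TPM. Every injured sample of both times thus exceeded all uninjured samples, a separation that 8.68% of all genes had at 4 hr and 12.5% at 24 hr. The opposite separation, every injured sample below every uninjured one, was seen for 0.839% and 0.518% of all genes and for none of the 8.

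The mean of Gdh was 34.1 ± 15.5 TPM at 4 hr and 19.0 ± 4.70 TPM at 24 hr, against 4.54 ± 1.58 TPM in uninjured samples, ratios of means of 7.51 and 4.18. On the log2(TPM + 1) scale, which understates changes of low genes, the change at 4 hr was 2.56 (SE 0.33, 95% interval 1.87 to 3.26, limma adjusted p = 3.46e-05). This was place 97 from the top among the 8101 genes. The change at 24 hr was 1.86 (SE 0.33, 95% interval 1.16 to 2.56, limma adjusted p = 0.00297), place 196. Gdh had a lower mean at 24 hr than at 4 hr, with a log2 difference of -0.70 (95% interval -1.40 to -0.01) that did not pass after adjustment (limma adjusted p = 0.257).

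The 4 hr call of Gdh held in all 15 fits that left out 1 sample each, with log2 fold changes of 2.36 to 2.86, and with size factors (2.27, limma adjusted p = 4.04e-05). The 24 hr call was lost without replicate 1 of the 24 hr group (1.74, limma adjusted p = 0.0126), with size factors (1.42, limma adjusted p = 0.012) and with quantile normalization (1.26, limma adjusted p = 0.0222). With the mitochondrial genome left out it held (1.55, limma adjusted p = 0.00783). Gdh shares 7 of its 2343 exonic bases, 0.299%, with CG5854 on the opposite strand, and whether counting used strand is not stated.

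**Figure D2:**
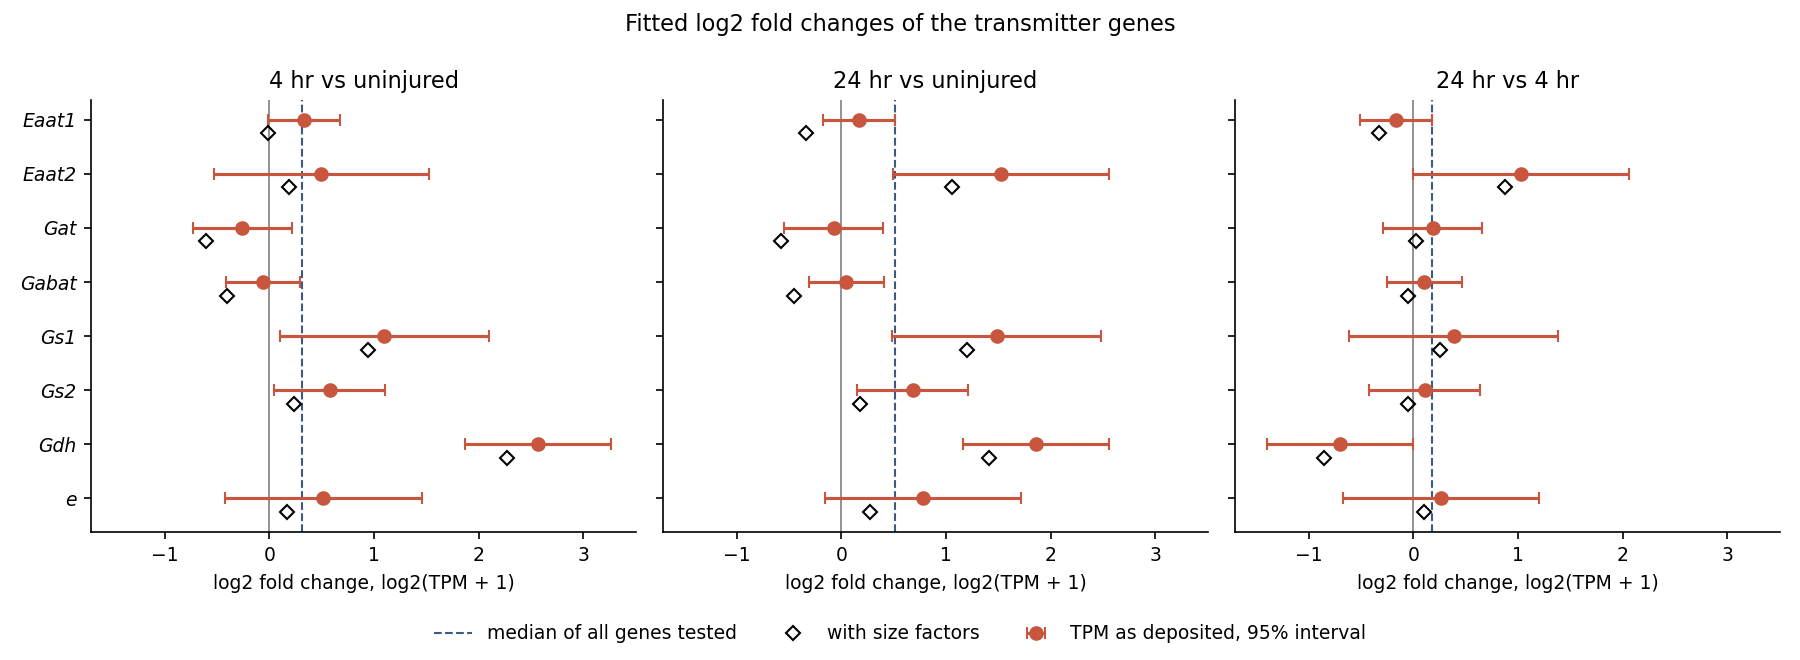
Log2 fold changes on the log2(TPM + 1) scale (horizontal axis) of the 8 genes for 4 hr against uninjured, 24 hr against uninjured and 24 hr against 4 hr. Filled points with 95% intervals use TPM as deposited, open diamonds use size factors, and the dashed lines mark the median of all genes tested (0.31, 0.51 and 0.18). Gdh lies farthest from those lines in both comparisons with uninjured samples, at 2.56 and 1.86.

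The 2 glutamine synthetases differed by several orders of magnitude in level. Gs2, the cytosolic enzyme that makes glutamine from glutamate and ammonia in glia, lies on the plus strand of X:11422832-11430197 (dm6). It had 31006, 26032, 20078, 12754 and 16704 TPM in replicates 1 to 5 at 4 hr, and 23670, 24241, 25350, 18254 and 18861 TPM at 24 hr. In uninjured samples it had 15142, 11631, 17476, 13004 and 11695 TPM. All 5 samples at 24 hr exceeded all uninjured samples, as did 3 of 5 at 4 hr.

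The log2 fold change of Gs2 was 0.68 at 24 hr (SE 0.25, limma adjusted p = 0.0624) and 0.58 at 4 hr (SE 0.25, limma adjusted p = 0.146). Neither passed the threshold, and both were near the medians of all genes, at the 60.2 and 67.9 percentiles. With size factors they were 0.18 and 0.23. Quantile normalization instead gave Gs2 0.93 at 24 hr and 0.84 at 4 hr (limma adjusted p = 0.158 and 0.2). The medians of all genes were then -0.02 and -0.06, so the size of the Gs2 change depended on the scale. The exact two-sided permutation test on TPM as deposited gave p = 0.0556 for 4 hr and 0.00794 for 24 hr against uninjured samples, the second being the smallest that 5 against 5 samples allow and reached by every gene with a full separation, 12.5% of all genes at 24 hr.

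Gs1, the mitochondrial glutamine synthetase, lies in 1 merged exon on the plus strand of 2L:132077-134472 (dm6) and stayed near the lower limit of the table. It had 4.26, 1.73, 2.87, 1.12 and 4.33 TPM at 4 hr and 6.53, 3.39, 5.99, 1.68 and 2.87 TPM at 24 hr. In uninjured samples it had 5.12, 0.21, 0, 0.17 and 0.62 TPM. Replicate 1 of the uninjured group was thus above all 4 hr samples and 3 of 5 samples at 24 hr, while the other 4 uninjured samples were below every injured one.

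The log2 fold change of Gs1 was 1.48 at 24 hr (SE 0.47, limma adjusted p = 0.0394) and 1.10 at 4 hr (SE 0.47, limma adjusted p = 0.142), and neither passed. Without uninjured replicate 1 the 24 hr change became 1.95 and passed (limma adjusted p = 0.00843), while the 4 hr change of 1.56 did not (limma adjusted p = 0.0144). At such levels the fold change depends on the pseudocount: with 0.1 in place of 1 the changes were 2.40 at 4 hr and 2.91 at 24 hr. With size factors they were 0.94 and 1.20 (limma adjusted p = 0.228 and 0.123), and with quantile normalization 0.62 and 0.79. Gs1 passed the filter only through the injured samples, and uninjured replicate 1 was the only uninjured sample at 1 TPM or more. The pass without that sample is therefore no support for a change.

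Eaat1 is the high-affinity glutamate transporter of fly astrocytes and lies on the plus strand of 2L:9333567-9341925 (dm6). It had 6810, 6931, 6991, 6040 and 6098 TPM at 4 hr, 5957, 6178, 6093, 5787 and 5252 TPM at 24 hr, and 5791, 5325, 6275, 4349 and 4559 TPM in uninjured samples. The groups overlapped, and the SD of Eaat1 was 7.09% of the mean at 4 hr, 6.28% at 24 hr and 15.4% in uninjured samples. The log2 fold change of Eaat1 was 0.33 at 4 hr (SE 0.16, limma adjusted p = 0.201) and 0.17 at 24 hr (SE 0.16, limma adjusted p = 0.461). These stood beside medians of 0.31 and 0.51 over all genes, and with size factors they were -0.01 and -0.34, so the direction of Eaat1 depended on the scale.

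Eaat2 is the paralog of Eaat1, known in flies to carry aspartate and taurine and to be used by ensheathing glia, and it lies on the minus strand of 2L:737212-744395 (dm6). It had 24.7, 22.6, 7.77, 7.42 and 5.10 TPM at 4 hr, 52.4, 34.2, 29.1, 7.29 and 19.5 TPM at 24 hr, and 6.64, 11.9, 11.2, 4.30 and 6.62 TPM in uninjured samples. All samples at 24 hr except replicate 4, and replicates 1 and 2 at 4 hr, exceeded all uninjured samples. The log2 fold change at 24 hr was 1.52 (SE 0.49, limma adjusted p = 0.0399), which did not pass the threshold of 0.01, and with size factors it was 1.06 (limma adjusted p = 0.127). The value for 4 hr was 0.50 (SE 0.49, limma adjusted p = 0.547), and between 24 hr and 4 hr 1.03 (SE 0.49, limma adjusted p = 0.264).

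The summed level of 3 ensheathing glia markers moved in part with Eaat2. The summed TPM of rumpel, Tsp42Ea and ltl was 556, 510, 263, 196 and 193 in replicates 1 to 5 at 4 hr, 690, 544, 624, 340 and 369 at 24 hr, and 299, 196, 276, 263 and 246 in uninjured samples. As for Eaat2, replicates 1 and 2 were the highest at 4 hr, replicate 1 was the highest and replicate 4 the lowest at 24 hr. Among uninjured samples, replicate 2 had the highest Eaat2 and the lowest sum. The sums at 24 hr were all above those of uninjured samples, and those at 4 hr overlapped them. Of the 3 markers, ltl was under 1 TPM in every sample, and rumpel made up most of the sum (mean 280 TPM at 4 hr, 474 TPM at 24 hr and 236 TPM in uninjured samples). Tsp42Ea did not have the order of Eaat2 over the groups, with means of 63.7 TPM at 4 hr, 39.7 TPM at 24 hr and 20.1 TPM in uninjured samples. The order of replicates given above was not particular to these markers. The sum of the 4 cortex glia markers had it too, at 523, 460, 338, 255 and 263 TPM in replicates 1 to 5 at 4 hr. At 24 hr that cortex glia sum was 1036, 867, 706, 410 and 477 TPM. The part of ensheathing glia in the Eaat2 values was not tested.

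Sums of other marker lists overlapped between uninjured samples and at least 1 injury time. The 11 neuronal markers summed to 77.2 to 169 TPM at 4 hr, 43.2 to 252 TPM at 24 hr and 49.1 to 122 TPM in uninjured samples. The 4 cortex glia markers summed to 255 to 523, 410 to 1036 and 313 to 592 TPM, and the 4 surface glia markers, of which Gli and Mdr65 were under 1 TPM in every sample, to 43.9 to 131, 41.1 to 100.1 and 33.3 to 51.1 TPM. The 5 hemocyte markers summed to 112 to 220 TPM at 4 hr, 109 to 172 TPM at 24 hr and 68.0 to 154 TPM in uninjured samples. Nearly all of this was crq (mean 169.6, 143.6 and 98.3 TPM in these groups), while Hml, NimC1, eater and He were under 1 TPM in every sample. The 5 fat body markers summed to 9.00 to 13.9, 19.2 to 41.6 and 15.04 to 33.8 TPM, and the photoreceptor and muscle lists stayed at or below 9.00 TPM in every sample.

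Gat carries GABA back across the membrane and lies on the plus strand of 4:629691-635350 (dm6). It had 11967, 15615, 13451, 15278 and 14627 TPM at 4 hr, 14866, 15793, 21629, 14281 and 14816 TPM at 24 hr, and 11215, 16502, 24460, 17740 and 17065 TPM in uninjured samples. Both injured groups lay inside the uninjured range. The log2 fold change was -0.26 at 4 hr (SE 0.22, 95% interval -0.73 to 0.22, limma adjusted p = 0.492) and -0.07 at 24 hr (SE 0.22, 95% interval -0.54 to 0.40, limma adjusted p = 0.837). With size factors the values were -0.60 and -0.57 (limma adjusted p = 0.112 and 0.129), and with quantile normalization -0.09 and 0.04.

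Gabat, the mitochondrial enzyme that breaks down GABA, lies on the minus strand of 3L:19997714-20000686 (dm6). It had 309, 291, 223, 196 and 235 TPM at 4 hr, 244, 294, 279, 235 and 284 TPM at 24 hr, and 251, 262, 348, 217 and 229 TPM in uninjured samples. The 3 groups overlapped throughout, with means of 251 ± 47.3, 267 ± 26.1 and 261 ± 51.6 TPM (SD, n = 5 each). The log2 fold changes were -0.06 at 4 hr (95% interval -0.41 to 0.30) and 0.05 at 24 hr (95% interval -0.31 to 0.40), and neither passed (limma adjusted p = 0.86 and 0.854). With size factors they were -0.40 and -0.45 (limma adjusted p = 0.0841 and 0.0658). Gabat shares 29 of its 2330 exonic bases, 1.24%, with Tom20 on the opposite strand.

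The ebony gene, e, lies on the minus strand of 3R:21229839-21237177 (dm6), and it was the most variable of the abundant members. It had 1573, 1493, 952, 345 and 442 TPM in replicates 1 to 5 at 4 hr, and 1592, 1836, 958, 612 and 499.7 TPM at 24 hr. In uninjured samples it had 699, 664, 843, 491 and 296 TPM. Replicates 1 to 3 of both injury times exceeded all uninjured samples, and replicates 4 and 5 were inside the uninjured range. The log2 fold change was 0.52 at 4 hr (SE 0.45, limma adjusted p = 0.486) and 0.78 at 24 hr (SE 0.45, limma adjusted p = 0.198), and with size factors 0.17 and 0.28.

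The same split of replicates ran through several of the genes. At 4 hr, replicates 1 and 2 held the 2 highest and replicates 4 and 5 the 2 lowest values of e, Gs2, Gdh and Eaat2. The mitochondrial genome took 17.2, 11.5, 26.9, 43.2 and 36.3% of TPM in replicates 1 to 5. At 24 hr the mitochondrial share was 15.7, 15.2, 19.6, 37.2 and 33.4%. Replicates 4 and 5 again held the 2 lowest values of e, Gs2 and Eaat2, but not of Gdh, which was lowest in replicates 5 and 3. In uninjured samples the share was 44.9, 51.8, 32.7, 41.9 and 44.1%. There replicate 3, with the lowest share, had the highest Eaat1, Gat, Gs2, Gabat and e. Replicate 2, with the highest share, had the highest Gdh and Eaat2 of that group, at 7.25 and 11.9 TPM. With the mitochondrial genome left out, the log2 fold changes of e were 0.17 at 4 hr and 0.37 at 24 hr, and those of Gs2 0.23 and 0.27.

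**Figure D3:**
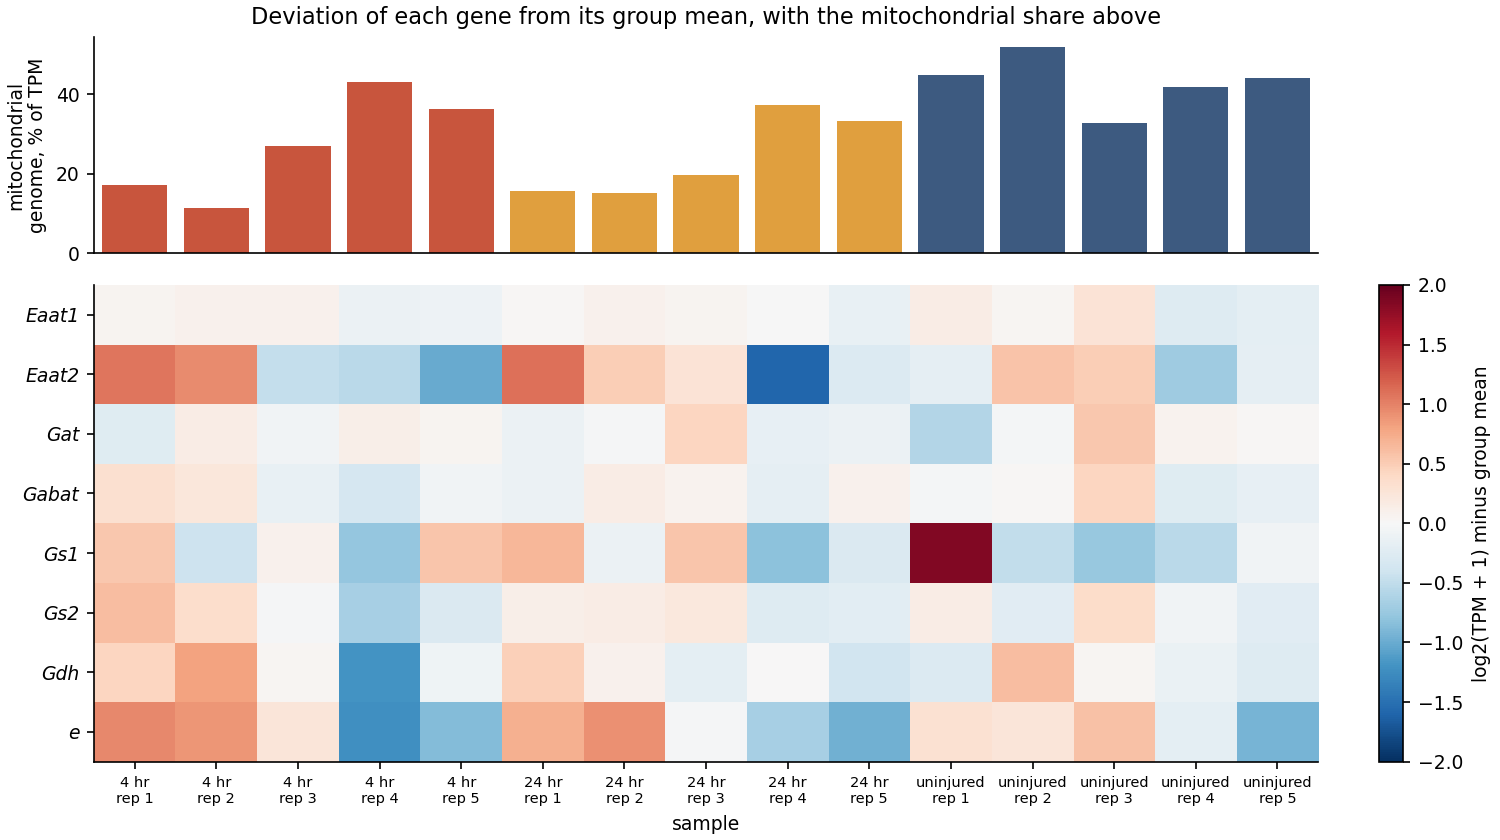
Top, percent of TPM taken by the mitochondrial genome in each sample (bars coloured by group). Bottom, log2(TPM + 1) of each gene minus its group mean (colour scale from -2 to 2) in the same samples; e deviates by 0.96 and 0.89 in replicates 1 and 2 at 4 hr, where the mitochondrial share is 17.2 and 11.5%, and by -1.22 and -0.87 in replicates 4 and 5, where it is 43.2 and 36.3%.

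After subtraction of the group means, the deviations of e correlated over the 15 samples with those of Gs2 (Pearson r = 0.86), Eaat2 (r = 0.77), Gdh (r = 0.74) and Eaat1 (r = 0.71). Gs2 correlated with Gabat at r = 0.78. Gat stood apart, with r between -0.05 and 0.27 for every other gene of the 8 except Gs1 (r = -0.53). These are descriptions: all points share the same libraries and the same fixed TPM total.

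Genes with the most similar deviations were named for each member from the 3 with the highest Pearson r among the 8101 genes over the 15 samples. For e these were Cyp4g15 (r = 0.99), Khc (0.99) and CG7430 (0.98), against a median r of 0.28 with all genes, and for Gs2 they were CG11504 (0.97), CAH1 (0.97) and Gapdh1 (0.96), against 0.31. For Gdh they were Hpf1 (0.93), l(2)k05819 (0.92) and FBgn0026370 (0.90). For Gabat they were Mdh1 (0.92), Rac1 (0.91) and nrv2 (0.91), and for Gat they were Cals (0.94), rho (0.90) and Gcat (0.90). For Eaat1 they were CG8668 (0.89), IntS11 (0.88) and Spn55B (0.87), and for Eaat2 CG13252 (0.91), CG31908 (0.91) and AGBE (0.91). For Gs1 they were VGAT (0.86) and CG15561 (0.83). Like Gs1, VGAT was near the lower limit of the table, with means of 0.816 TPM at 4 hr, 1.52 TPM at 24 hr and 0.566 TPM in uninjured samples. VGAT is also on the neuronal marker list. Leaving out the 2 samples in which the member lay farthest from its median deviation changed r little for e with Cyp4g15 (0.99) and more for Gs1 with CG15561 (0.61).

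Ratios within a sample are free of its scaling, apart from the pseudocount. Gdh releases ammonia from glutamate, and Gs2 binds ammonia to it. Per 1000 TPM of Gs2 there were 1.56 ± 0.407 TPM of Gdh at 4 hr and 0.865 ± 0.200 TPM at 24 hr, against 0.343 ± 0.160 TPM in uninjured samples (SD, n = 5 each). The log2 ratio was higher than in uninjured samples by 1.99 at 4 hr, where all 5 samples exceeded the uninjured ones, and by 1.18 at 24 hr, where 4 of 5 did. The exact two-sided permutation test gave p = 0.00794 and 0.0159, and 0.0635 for each after Benjamini-Hochberg adjustment over the 12 ratio comparisons. The ratio at 24 hr was lower than at 4 hr by -0.81 on the log2 scale (exact permutation p = 0.0159, adjusted 0.0635).

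Per 1000 TPM of Eaat1 there were 2.01 ± 1.32 TPM of Eaat2 at 4 hr and 4.81 ± 2.75 TPM at 24 hr, against 1.52 ± 0.503 TPM in uninjured samples. The log2 difference was 1.36 at 24 hr (exact permutation p = 0.0317, adjusted 0.0953), 0.17 at 4 hr (exact permutation p = 0.69, adjusted 0.753), and 1.19 for 24 hr against 4 hr (exact permutation p = 0.0556, adjusted 0.133). None of the 12 adjusted values was below 0.05. The smallest permutation p that 5 against 5 samples allow is 0.00794, which a single comparison could not by itself bring below 0.05 after this adjustment. The 6 comparisons of Gs1 with Gs2 and of Gabat with Gat had log2 differences of -0.08 to 0.80, with unadjusted exact permutation p of 0.151 to 0.754.

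**Figure D4:**
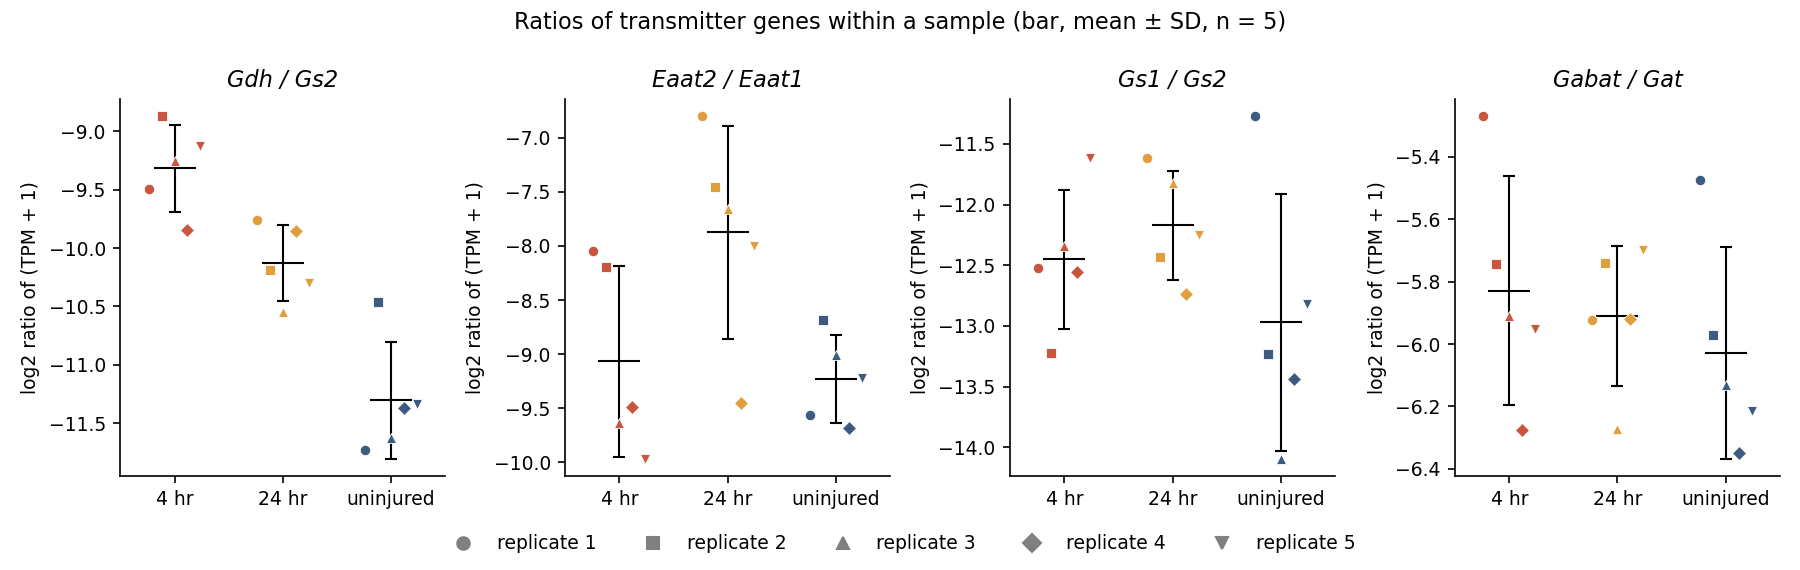
Log2 ratios of (TPM + 1) of Gdh to Gs2, Eaat2 to Eaat1, Gs1 to Gs2 and Gabat to Gat in each sample, by group, with replicate symbols and bars for the mean ± SD of 5 samples. The Gdh to Gs2 ratio averages -9.32 at 4 hr, -10.13 at 24 hr and -11.30 in uninjured samples, with all 4 hr samples above all uninjured ones.

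Lists of other genes of the same pathways were set beside the 8 genes. Of 13 further enzymes of glutamate, glutamine, proline and GABA metabolism, 10 were tested and none was called by limma in the 3 comparisons. At an unadjusted p below 0.05, 2 of them were higher and 1 lower at 4 hr, 3 were higher at 24 hr, and 1 was higher at 24 hr than at 4 hr. Of all genes tested, 23% were higher and 4.09% lower at 4 hr, 36.5% higher at 24 hr, and 12% higher between the times. AsnS, 1 of the 2 higher at 4 hr, had 0 TPM in every uninjured sample and passed the filter only through injured samples. The most abundant by mean over all samples was Got2, the mitochondrial aspartate aminotransferase, although at 24 hr succinic semialdehyde dehydrogenase (Ssadh) averaged 320 TPM and Got2 287 TPM. Ssadh and AsnS were named after their values were seen. Got2 had 361, 373, 323, 150 and 211 TPM at 4 hr, 338, 334, 335, 249 and 177 TPM at 24 hr, and 182, 144, 169, 188 and 175 TPM in uninjured samples. In each injured group 4 of 5 samples exceeded all uninjured ones, with log2 fold changes of 0.64 at 4 hr (limma adjusted p = 0.0948) and 0.70 at 24 hr (limma adjusted p = 0.0537). With size factors these were 0.30 and 0.20 (limma adjusted p = 0.33 and 0.503). Replicates 4 and 5 were again the lowest of each injured group. The median log2 fold change of the list was 0.06 at 4 hr and 0.45 at 24 hr, beside 0.31 and 0.51 for all genes.

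Of 18 genes of amine and beta-alanine metabolism, 17 were in the table and 8 were tested. Punch (Pu), GTP cyclohydrolase, which starts synthesis of the cofactor of the aromatic amino acid hydroxylases, was called higher at 4 hr. It reached 1 TPM in 5 samples at 4 hr, 3 at 24 hr and 1 uninjured sample, so it passed the filter only through the 4 hr group, where it was high. It had 7.25, 3.18, 7.79, 3.90 and 6.74 TPM at 4 hr, 0.93, 3.31, 3.74, 0.62 and 1.08 TPM at 24 hr, and 0, 0, 0.73, 0 and 4.05 TPM in uninjured samples. At 4 hr 3 of 5 samples exceeded all uninjured ones, with a log2 fold change of 2.07 (SE 0.47, limma adjusted p = 0.00595). The call held in 8 of 15 fits without 1 sample and was lost without 4 hr replicates 1, 3 or 5 or uninjured replicates 1, 2, 3 or 4 (limma adjusted p up to 0.0196), and with size factors (limma adjusted p = 0.0113). CRMP, the most abundant of the list, averaged 51.8 ± 6.74, 51.7 ± 7.99 and 45.3 ± 11.2 TPM at 4 hr, at 24 hr and in uninjured samples, and was not called.

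None of the 8 tested genes among 18 transporters of the SLC6 family, to which Gat belongs, was called by limma. At an unadjusted p below 0.05, 1 was higher at 4 hr, 5 were higher at 24 hr, and none passed between 24 hr and 4 hr. Of all genes tested, 23% were higher at 4 hr and 36.5% at 24 hr at that threshold. Among the 5, CG10804 reached at most 0.37 TPM in uninjured samples and passed the filter only through injured samples. It was named after its values were seen. Their most abundant gene besides Gat, inebriated (ine), averaged 440 ± 161 TPM at 4 hr, 614 ± 157 TPM at 24 hr and 375 ± 93.1 TPM in uninjured samples, with log2 fold changes of 0.18 and 0.71 against uninjured samples (limma adjusted p = 0.704 and 0.0651). With size factors ine was -0.16 at 4 hr and 0.20 at 24 hr (limma adjusted p = 0.652 and 0.502). Medians of the list were 0.70 at 4 hr and 0.95 at 24 hr, beside 0.31 and 0.51 for all genes.

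Of 14 other amino acid transporters 8 were tested, and minidiscs (mnd), a neutral amino acid transporter of the SLC7 type and the most abundant of the list, was called higher at 24 hr than at 4 hr. It had 75.3, 76.6, 81.7, 57.8 and 60.8 TPM at 24 hr and 44.2, 32.3, 27.2, 11.2 and 25.5 TPM at 4 hr. In uninjured samples it had 63.9, 33.9, 76.5, 61.6 and 57.3 TPM, and 4 of 5 samples at 4 hr lay below all of them. The log2 difference between 24 hr and 4 hr was 1.40 (SE 0.29, limma adjusted p = 0.00776), and with size factors 1.25 (limma adjusted p = 0.00211). The call held in 3 of 15 fits without 1 sample, those without 4 hr replicate 1, uninjured replicate 2 or uninjured replicate 3, with limma adjusted p of 0.00346 to 0.0261. For 4 hr against uninjured it was -1.11 (limma adjusted p = 0.0173), and with size factors it was -1.45 and passed (limma adjusted p = 0.000341).

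Of 16 glutamate and GABA receptors 6 were tested and none was called by limma. At an unadjusted p below 0.05, 1 was higher at 24 hr than at 4 hr and none passed against uninjured samples. Of all genes tested, 12% were higher at 24 hr than at 4 hr. Against uninjured samples 23% were higher at 4 hr and 36.5% at 24 hr. The glutamate-gated chloride channel GluClalpha was the most abundant, at 42.8 ± 6.92 TPM at 4 hr, 67.1 ± 12.6 TPM at 24 hr and 54.9 ± 7.75 TPM in uninjured samples. GluClalpha had a log2 difference of 0.63 between 24 hr and 4 hr (limma adjusted p = 0.0587). With size factors it was lower at 4 hr than in uninjured samples by -0.69 on the log2 scale (limma adjusted p = 0.0158), which did not pass the threshold. Medians of the receptor list were -0.13 at 4 hr and 0.11 at 24 hr against uninjured samples.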

How the data were processed

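RNA was sequenced from 15 samples of sorted fly astrocytes, in 3 groups of 5. The deposited table holds TPM per FlyBase gene, made by the authors from reads aligned to dm6. The submitters' notes name Trimmomatic 0.39, FastQC 0.11.7, HISAT2, HTSeq, STAR 2.6.0a, RSEM 1.3.1, DESeq2 1.30.1 and R 4.0.0, without saying which tool made the TPM. Smart-seq2 amplified poly(A) RNA. All columns have the same total, so depth and counting error are not known. A rise in one abundant class lowers every other TPM.

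Groups and replicate numbers were taken from the sample titles. Values were used as log2(TPM + 1) for genes with at least 1 TPM in at least 5 samples (8101 genes). One limma-trend fit (limma 3.58.1, R 4.3.3) over the 3 groups gave the comparisons, with Benjamini-Hochberg adjustment over all genes tested; calls needed an adjusted p below 0.01 together with a log2 fold change of 1 or more in size. The script was tested on simulated data. Ratios were compared by exact permutation of samples (Python 3.11.15, SciPy 1.17.1).

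The text names the 8 genes, pathway genes that were called, the most abundant gene of each pathway list, the 3 genes nearest to each member, alrm and nSyb, and marker genes. The members and lists were chosen with earlier results of these data known. Alternatives were the adjusted p threshold, pseudocount, filter, 2-group fits, size factors, quantile normalization, mitochondrial genome left out, replicate block, sample weights, and leaving out each sample. The replicates are separate samples of each group; whether same-numbered samples share a day is not stated. Gene positions and exons come from the Ensembl annotation of BDGP6, the same assembly as dm6. One of the genes with similar deviations is not reported here. No promoter or protein sequence is used here.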

Additional observations from a re-analysis of the deposited data

Results flagged for a closer look

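Of 57 groups of 5 samples examined, 6 held a sample whose gap to the nearest other sample, divided by the range of the group, was above Dixon's 95% critical value of 0.71; chance alone gives about 1 group in 20. Gat at 24 hr was 21629 TPM in replicate 3, against 14281 to 15793 TPM in the other samples of that group. Gs1 was 5.12 TPM in uninjured replicate 1, against 0 to 0.62 TPM in the others. Gdh was 7.25 TPM in uninjured replicate 2, against 3.47 to 4.53 TPM. The summed TPM of the 8 genes was 49417 in uninjured replicate 3, against 33113 to 35809 in the others. Among pathway genes, Pu was 4.05 TPM in uninjured replicate 5, against 0 to 0.73 TPM, and CRMP was 37.98 TPM in replicate 5 at 24 hr, against 52.81 to 58.54 TPM. Causes of these values were not tested.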

How the results depend on the processing

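Of the log2 fold changes of the 8 genes, 572 values under alternatives kept their direction and their side of the threshold, 18 changed direction, 4 passed where the reported value did not and 3 no longer passed. The cause of these changes was not tested. The Gdh change at 24 hr did not pass with size factors (1.42) or quantile normalization (1.26), and without 1 sample it ranged over 1.74 to 2.01. With size factors, quantile normalization and the mitochondrial genome left out, Eaat1 was -0.0103, -0.0433 and -0.0155 at 4 hr and -0.34, -0.38 and -0.24 at 24 hr, and Gabat at 24 hr was -0.45, -0.33 and -0.36. Gat at 24 hr was 0.044 with quantile normalization. Between 24 hr and 4 hr, size factors gave Gs2 -0.0535 and Gabat -0.0539. Without 1 sample, Gat at 24 hr ranged over -0.22 to 0.0636, Gabat over -0.14 to 0.0498 at 4 hr and -0.0144 to 0.16 at 24 hr, Gs2 over -0.0604 to 0.26 and e over -0.0398 to 0.51 between 24 hr and 4 hr.

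Called genes over the whole table numbered 485 at 4 hr, 188 at 24 hr and 162 between the injury times, and 820, 1097 and 294 at an adjusted p below 0.05. At 24 hr there were 102 with no filter, 72 with size factors, 66 with quantile normalization, 81 with the mitochondrial genome left out and 586 with sample weights. Without 1 sample there were 69 to 288, over 1.5 times away without 24 hr replicates 1, 2 or 3, uninjured replicates 1, 2 or 5, or 4 hr replicate 4. At 24 hr the split of 183 higher and 5 lower calls was 50 and 22 with size factors; at 4 hr, 467 and 18 became 324 and 72.

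With the replicate block, 574, 598 and 207 genes were called in the 3 comparisons, and of the 8 genes Eaat2 passed at 24 hr (1.52, limma adjusted p = 0.00812) beside Gdh. The block used the replicate numbers of the sample titles, from which the submitters' column numbers differ. Same-numbered samples did not pair throughout. Correlations of their deviations were -0.02 to 0.54 for 4 hr with 24 hr (over 0.1 in 4 of 5 pairs). They were -0.04 to 0.15 for 4 hr with uninjured and -0.04 to 0.21 for 24 hr with uninjured (2 of 5 in each). Of the 15 samples, 3 correlated best with their own number in both other groups. Shared handling of same-numbered 4 hr and 24 hr samples was not tested.

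Without 1 sample, log2 ratio differences moved across an unadjusted p of 0.05 or across 0 for Eaat2 to Eaat1 (-0.0889 to 0.39 at 4 hr, 1.09 to 1.75 at 24 hr, 0.93 to 1.59 between the times), Gs1 to Gs2 (0.24 to 0.94 at 4 hr, 0.52 to 1.22 at 24 hr) and Gabat to Gat (-0.19 to 0.0588 between the times). The summed TPM of the 8 genes was 59479, 60354 and 65428 with the mitochondrial genome left out, and 38924 at 24 hr and 45002 in uninjured samples with size factors.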

Other observations

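Of the SLC6 transporters, List and bedraggled (bdg) came nearest to the threshold and were chosen after their values were seen. List averaged 69.5 ± 41.5 TPM at 4 hr and 107 ± 39.0 TPM at 24 hr, against 39.1 ± 17.5 TPM in uninjured samples (SD, n = 5 each). Its log2 fold change at 24 hr was 1.47 (limma adjusted p = 0.0181), and 0.97 with size factors (limma adjusted p = 0.0699). The bdg gene averaged 18.9 ± 9.00 TPM at 4 hr and 18.3 ± 6.67 TPM at 24 hr, against 6.33 ± 3.04 TPM in uninjured samples. Its log2 fold changes were 1.42 and 1.46 (limma adjusted p = 0.025 and 0.0236), and with size factors 1.11 and 1.00 (limma adjusted p = 0.0592 and 0.0963).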
